A study of Mus musculus with 2 samples.

Results

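The circadian clock and output genes described here are Dbp, Tef, Per1, Per2, Per3, Cry1, Cry2, Nr1d1, Nr1d2 and Bhlhe40. Their members were taken as all probe sets that the annotation of the Mouse Genome 430 2.0 array (Affymetrix) assigns to exactly 1 gene, that gene being one of these. This gave 21 probe sets of 10 genes, out of 34945 such probe sets of 18193 genes on the array. The cells were bone-marrow-derived macrophages of C57BL6 mice grown in RPMI medium with serum and MCSF, the growth factor that turns marrow precursors into macrophages. The control group was left without lipopolysaccharide (LPS), the Gram-negative bacterial wall component sensed by TLR4, and the LPS group was treated with it. The groups share strain, tissue of origin and culture medium, and the labels name no other agent or allele. The sources used here do not give the dose or duration of LPS, the time of harvest, or the number, age and sex of the mice. There was 1 array per condition, so no difference below has a replicate check, no p-value is given, and precision is limited by having a single array on each side. The genes were selected on their role in the clock with their LPS over control ratios of these same arrays already known, so those ratios are given as a description of 2 arrays and support nothing by themselves.

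The mammalian clock is a transcription loop. CLOCK and BMAL1 (encoded by Arntl) bind E-box sequences and switch on the Period and Cryptochrome genes, whose proteins return to the nucleus and block CLOCK and BMAL1. The same activators drive Nr1d1 and Nr1d2, which encode the nuclear receptors REV-ERB alpha and REV-ERB beta, repressors of Arntl, and the output regulators Dbp and Tef, whose proteins of the PAR bZIP class activate genes through D-box sequences. In macrophages the clock is known to run in the cells themselves, and the REV-ERB proteins are known as repressors of inflammatory genes.

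Promoter windows bear on these genes because the loop runs through short sequences near their starts. RefSeq windows of build GRCm38.p6, from 250 bases before to 50 bases after an annotated start, matched 8 of the 10 genes by symbol, with 10 windows in all. The following 4 windows are shown because they hold a match to the E-box or the D-box. Each is printed from 5′ to 3′ on the strand of its gene, and capitals mark the match. The Per3 window is chr4:151044616-151044915 on the minus strand, the Tef window chr15:81802423-81802722 on the plus strand, the Per1 window chr11:69098699-69098998 on the plus strand and the Cry1 window chr10:85185005-85185304 on the minus strand.
Per3: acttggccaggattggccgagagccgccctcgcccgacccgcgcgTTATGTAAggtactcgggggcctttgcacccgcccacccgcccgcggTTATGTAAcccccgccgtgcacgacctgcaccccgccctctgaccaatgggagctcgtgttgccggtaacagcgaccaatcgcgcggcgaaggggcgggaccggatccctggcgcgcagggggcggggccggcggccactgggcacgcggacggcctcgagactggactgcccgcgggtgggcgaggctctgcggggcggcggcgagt
Tef: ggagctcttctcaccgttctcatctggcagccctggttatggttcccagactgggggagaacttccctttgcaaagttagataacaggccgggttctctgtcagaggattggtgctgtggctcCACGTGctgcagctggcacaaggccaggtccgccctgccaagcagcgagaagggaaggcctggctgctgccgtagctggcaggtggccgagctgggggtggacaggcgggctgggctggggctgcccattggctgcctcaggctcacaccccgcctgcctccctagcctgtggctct
Per1: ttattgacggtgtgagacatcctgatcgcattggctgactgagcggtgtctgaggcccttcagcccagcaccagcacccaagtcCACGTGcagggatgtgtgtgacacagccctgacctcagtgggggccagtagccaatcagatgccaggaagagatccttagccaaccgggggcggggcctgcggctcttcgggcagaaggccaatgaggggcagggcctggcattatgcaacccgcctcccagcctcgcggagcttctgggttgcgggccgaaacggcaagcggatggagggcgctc
Cry1: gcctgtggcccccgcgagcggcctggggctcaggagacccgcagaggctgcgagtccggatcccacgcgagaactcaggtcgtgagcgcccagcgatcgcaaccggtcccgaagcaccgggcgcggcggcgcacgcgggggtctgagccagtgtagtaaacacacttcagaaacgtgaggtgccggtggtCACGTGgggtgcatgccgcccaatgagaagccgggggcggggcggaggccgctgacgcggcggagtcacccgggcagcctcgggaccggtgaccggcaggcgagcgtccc

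The E-box, CACGTG, was searched on both strands and was found in 4 of the 10 windows, belonging to Tef, Per1 and Cry1, against 7.15% of all 32851 windows in the table. In the first Tef window it began at base -127 from the start and in the other Tef window at -138, in Per1 at -166 and in Cry1 at -60. The D-box, searched as TTATGTAA or TTACGTAA, was found only in the Per3 window among the 10, where it occurred at -205 and at -158, and 1.06% of all windows held it. The core of the site shared by the REV-ERB and ROR receptors, TAGGTCA (2.61% of all windows), a longer form of it with an A/T-rich flank (0.219%), the cAMP response element TGACGTCA (1.79%) and an NF-kB consensus site (0.411%) were in 0 of the 10 windows. A match is a run of letters and not a measured binding site, and these windows leave out introns and distant enhancers.

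**Figure D1:**
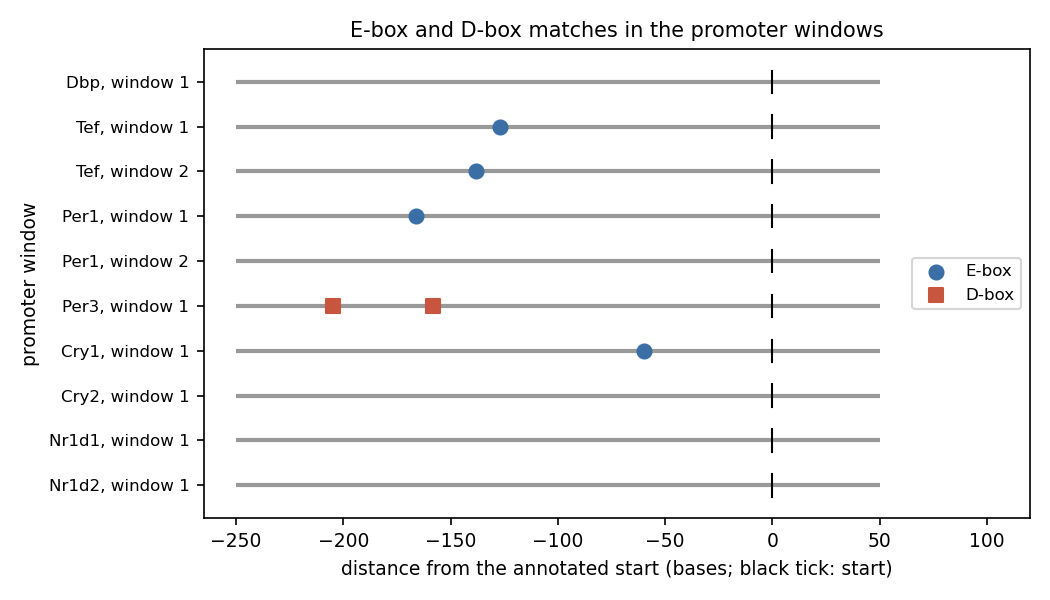
Positions of E-box and D-box matches in the 10 RefSeq promoter windows of 8 clock and output genes, in bases from the annotated start (black tick), with windows of a gene numbered by position. Per3 carries 2 D-box matches, at -205 and -158, and single E-box matches stand in both Tef windows, 1 Per1 window and the Cry1 window.

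The deposited values are linear MAS5 signals. Each array's median over its non-control probe sets was used as a floor, 35.1 for the control and 26.7 for LPS. A signal under its floor was set to the floor before a ratio was taken, which makes the ratio a bound written as at least N-fold. A gene counted as measured where the signal of its brightest probe set was not under both floors, which held for 11722 genes. Over all measured genes the log2 ratio (LPS minus control) had a median of -0.42, so ratios after centring on this median are given beside those as deposited. The labelled cell type was borne out by its markers: all 7 macrophage markers, Adgre1, Csf1r, Cd68, Itgam, Lyz2, Fcgr1 and Mertk, were above the floor on both arrays, with signals that summed to 39587 in the control and 40505 after LPS. Within these sums Fcgr1 was 4.02-fold higher as deposited, and Adgre1 (1.05-fold) and Lyz2 (1.09-fold) were slightly higher. Csf1r, Cd68, Itgam and Mertk were lower, Mertk the furthest at 1.67-fold. Of 26 markers of neutrophils, B cells, T cells, fibroblasts, erythroid and dendritic cells on the array, 4 reached the floor in the control and 7 after LPS, and their signals summed per cell type to between 38.3 and 374 in the control and between 52.2 and 576 after LPS. All T cell markers were under both floors. The summed B cell markers were lower after LPS, at 168 and 70.8, mostly through Cd79b, a B cell receptor subunit gene, at 110 and 35.3 (3.11-fold lower, and -1.21 on the log2 scale after centring), and their part in the results below was not tested. S100a8, which macrophages can also make, was the brightest of the 26 markers, at 270 and 440. In bulk RNA, fewer cells that express a gene and less RNA of it per cell cannot be told apart.

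Most of the clock and output genes that could be measured were lower on the LPS array, and Cry1 was the exception. Of the 10 genes, 8 were measured, while Per2 and Nr1d1 were under the floor on both arrays. As deposited, 6 of the 8 were at least 2-fold lower, 0 were higher by that size and 2 lay within 2-fold. Of all measured genes, 26.2% were lower and 8.22% higher by that size. After centring, 6 were lower and 1, Cry1, was higher, beside 15.3% and 13.1% of all measured genes. The median log2 ratio of the 8, of which 3 are bounds, was -2.37 as deposited and -1.95 after centring. Dbp, Per3 and Bhlhe40 passed the floor through the control array alone. Among the clock and output genes that reached both floors 3 of 5 were at least 2-fold lower, namely Tef, Nr1d2 and Per1. The matching share of all genes that reached both floors was not counted, so nothing is read from this number. Before any floor was applied, 20 of the 21 probe sets had the lower signal on the LPS array, which was also so for 63.8% of all probe sets with 1 gene.

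**Figure D2:**
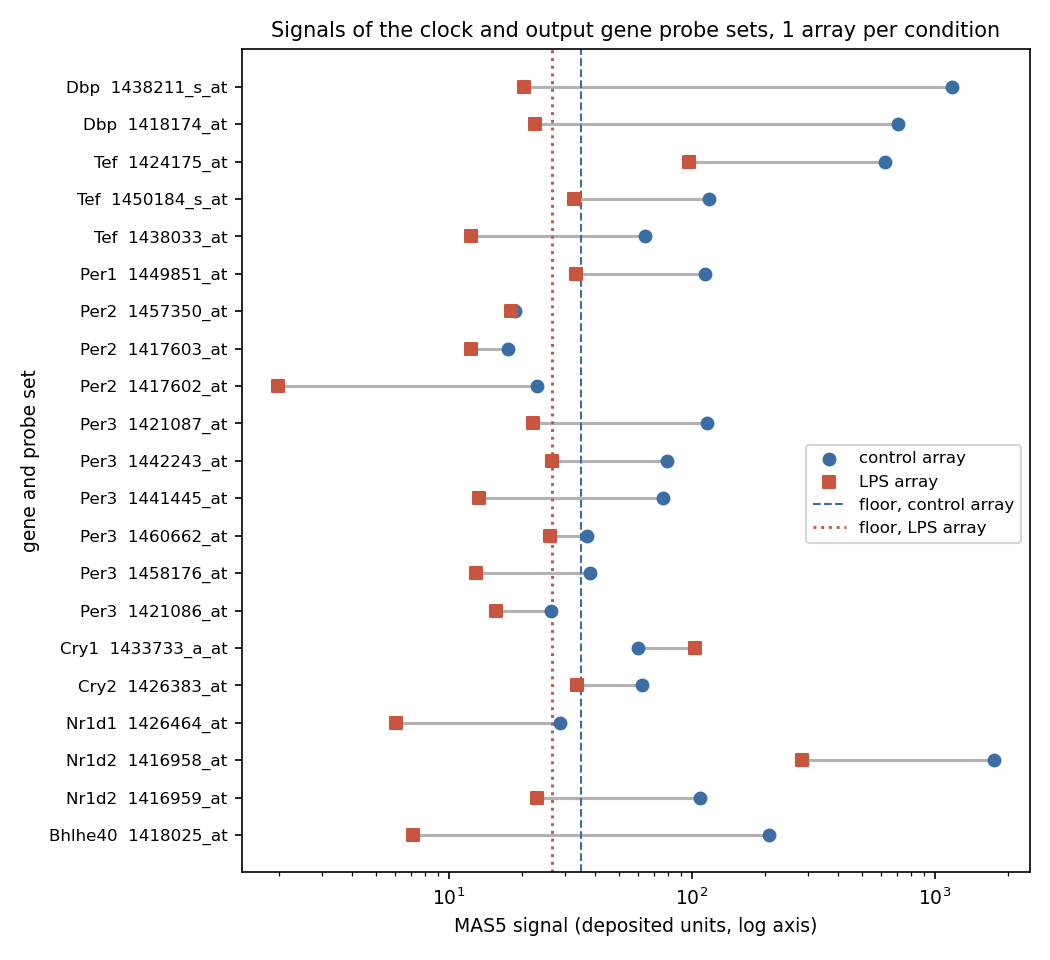
MAS5 signals (log axis) of the 21 probe sets of the 10 clock and output genes on the control array (circles) and the LPS array (squares), 1 array per condition, with each array's floor as a vertical line. The LPS value lies to the left of the control value in 20 of 21 probe sets, and 3 Per2 probe sets, 1 of Per3 and the Nr1d1 probe set lie under both floors.

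The output regulators Dbp and Tef were lower on the LPS array. Dbp, the PAR bZIP activator of D-box genes, gave 1174 signal units in the control and 20.5 after LPS with probe set 1438211_s_at, and 706 and 22.6 with 1418174_at. Both LPS signals were under the floor, so the brightest probe set put Dbp at least 44.0-fold lower and the other at least 26.5-fold lower. Its log2 ratio, a bound, was -5.46 as deposited and -5.04 after centring. Tef, the paralogue of Dbp that binds the same sites, went from 626 to 97.1 with probe set 1424175_at, which is 6.44-fold lower. Its other probe sets went from 118 to 32.9 (3.59-fold lower) and from 64.2 to 12.3, under the floor (at least 2.41-fold lower). As deposited, all 5 probe sets of the PAR bZIP pair were thus at least 2-fold lower, while after centring the bound of the dimmest Tef probe set was -0.84 on the log2 scale, short of 2-fold. Tef kept a signal above the LPS floor in 2 of its 3 probe sets whereas Dbp kept none. The log2 ratio of Tef was -2.69 as deposited and -2.27 after centring.

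The REV-ERB genes were measurable through Nr1d2. Nr1d2, which encodes REV-ERB beta, went from 1754 in the control to 284 after LPS with probe set 1416958_at, 6.18-fold lower. Its other probe set went from 108 to 23.1, under the floor, at least 4.06-fold lower. The log2 ratio of the brighter one was -2.63, and -2.21 after centring. Nr1d1, which encodes REV-ERB alpha, is read by 1 probe set here, with signals of 28.6 and 6.04, both under the floor, so no fold is given. With the floor lowered to the 35th percentile of each array, 16.8 in the control and 13.5 for LPS, Nr1d1 passed through the control array alone. It was then at least 2.11-fold lower, a log2 ratio of -1.08 that was not centred.

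The Period genes, the negative limb of the loop, were dim on both arrays. Per1, the member of the family best known for a quick response to outside signals, went from 114 in the control to 33.5 after LPS, just above the floor of 26.7, which is 3.39-fold lower. Its log2 ratio was -1.76 as deposited and -1.34 after centring. Per3 is read by 6 probe sets, of which 5 reached the control floor and 0 the LPS floor. The brightest, 1421087_at, went from 115 to 22.2, at least 4.33-fold lower. The next ones went from 78.9 to 26.6 and from 76.1 to 13.3, at least 2.96-fold and at least 2.85-fold lower. The remaining measured ones started close to the control floor, at 38.1 and 37.1, and were under the LPS floor at 13.0 and 26.2, so that their bounds reached only 1.43-fold and 1.39-fold. The sixth had 26.4 and 15.7, under the floor on both arrays. The size of the difference in Per3 therefore rests on the 3 brighter probe sets, with a log2 ratio of -2.11 for the brightest, and -1.69 after centring. The 3 probe sets of Per2 gave 18.8, 17.6 and 23.2 in the control and 18.0, 12.4 and 1.98 after LPS, and no change in Per2 was measurable.

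The Cryptochrome genes, whose proteins are the strongest repressors of CLOCK and BMAL1, parted. Cry1 went from 59.9 in the control to 103 after LPS, 1.72-fold higher. Its log2 ratio was 0.79 as deposited and 1.21 after centring. Each of the 5 scalings of the arrays raised it, to between 0.83 and 1.55, so they put its sign to little test. Its lowest value under any alternative processing was 0.18. Cry2 had signals of 62.2 and 33.7, 1.85-fold lower. Its log2 ratio was -0.88 as deposited and -0.46 after centring, negative under all 5 scalings. Both genes are read by a single probe set here and were within 2-fold as deposited, so the opposite directions rest on 1 dim probe set each. For scale, the median SD of the log2 ratios between probe sets of a gene was 0.28. It was taken over 4494 genes of any brightness with at least 2 probe sets measured on both arrays. This is a technical gauge and not a replicate error, and single dim probe sets may vary more. The 2 probe sets of Arntl, for example, gave -0.99 and 0.29.

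Bhlhe40 encodes DEC1, a repressor that competes with CLOCK and BMAL1 for E-boxes and also acts in immune cells. Its signal was 207 in the control and 7.14 after LPS, far under the floor, so it was at least 7.77-fold lower. The log2 ratio was -2.96 as deposited and -2.53 after centring. This rests on 1 probe set.

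**Figure D3:**
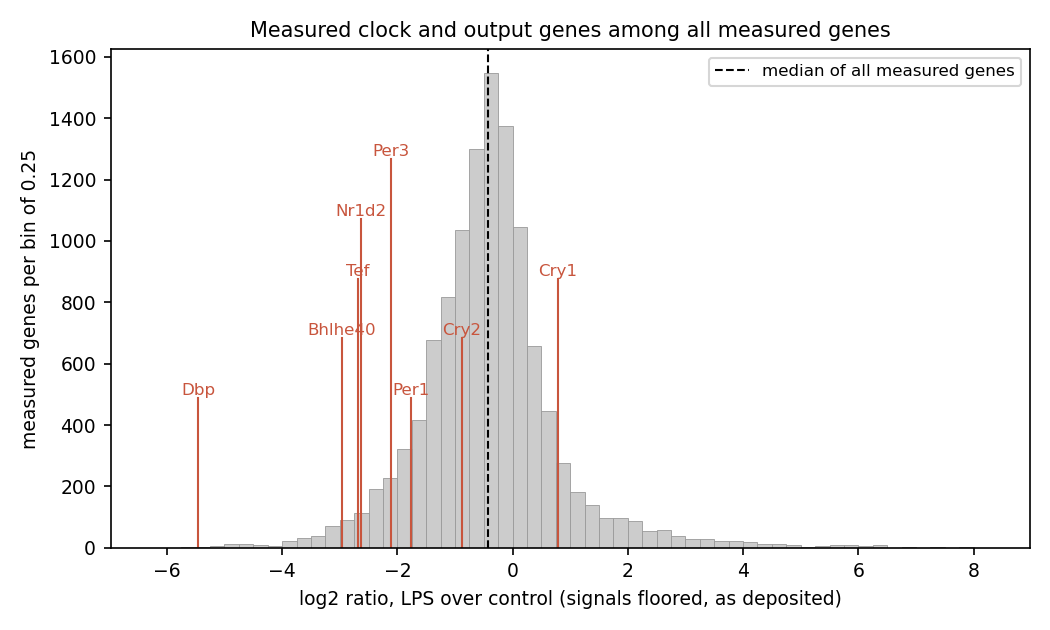
Histogram of log2 ratios (LPS over control, floored signals as deposited) of the 11722 measured genes in bins of 0.25, with the 8 measured clock and output genes as labelled lines whose heights carry no value. The median of all genes (dashed) is -0.42, Dbp is at -5.46, and Cry1, at 0.79, is the single labelled gene above 0.

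Other genes of the clock machinery were found on both sides. Of 25 further clock genes listed, 23 are on the array and 20 were measured. As deposited, 8 were lower by at least 2-fold, 2 were higher by that size and 10 were not counted past it, beside 26.2% lower and 8.22% higher of all measured genes. Their median log2 ratio was -0.70, beside -0.42. After centring, 4 were lower, 4 higher and 12 not counted past 2-fold, with a median of -0.28, beside the same 15.3% and 13.1% of all measured genes and an overall median of 0 by construction. Rorb, Bhlhe41 and Hlf were under the floor on both arrays.

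Among the activators, Clock went from 291 to 204, and its log2 ratio of -0.51 turned positive under loess. Its 4 probe sets ranged from -1.37 to -0.51. Arntl, the gene of BMAL1, went from 113 to 56.8 with its brightest probe set, a log2 ratio of -0.99, while its other probe set was at 0.29. Arntl2 went from 51.3 to 27.6, at -0.89. Npas2, a paralogue of Clock, went from 70.6 to 1.20, under the floor, at least 2.65-fold lower as deposited. Its log2 ratio after centring, -0.98, is a bound as well, so it was not counted past 2-fold there but may lie beyond it. Rora, which encodes an activator at the sites where the REV-ERB proteins repress, went from 243 to 25.3, under the floor, at least 9.12-fold lower. Of its 9 probe sets 6 were measured, and their log2 ratios ran from -3.19 to -1.21.

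The gene of the D-box repressor stood opposite to Dbp and Tef. Nfil3, whose protein (also called E4BP4) occupies D-boxes and represses them, went from 69.5 in the control to 1103 after LPS, 15.9-fold higher, with a log2 ratio of 3.99. It was the furthest on the higher side of the other clock genes, and each of the 5 scalings raised its ratio, to between 4.04 and 4.62. Thus the D-box activators Dbp and Tef were lower and the D-box repressor gene higher on the same LPS array. Ciart, a repressor of CLOCK and BMAL1 also called CHRONO, had 33.6, under the floor, and 68.2, at least 1.95-fold higher.

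The genes whose products mark or degrade clock proteins also differed both ways. Of the casein kinase 1 genes that phosphorylate Period proteins, Csnk1e went from 395 to 150, 2.63-fold lower, while Csnk1d went from 1184 to 924, with a log2 ratio of -0.36 that turned positive after median centring and whose 5 probe sets ranged from -0.36 to 0.64. Csnk1a1 was at 0.37, with 5 probe sets from -0.31 to 0.63. The lowest of these, with signals of 20.9, under the floor, and 28.4, has a sign set by the floors themselves. Gsk3b, another clock kinase, was 2.06-fold lower. Fbxw11, a subunit of the ubiquitin ligase that marks Period proteins, went from 2964 to 6915, 2.33-fold higher, and Btrc, its paralogue, was at 0.21. Fbxl21, of the ligase that acts on Cryptochromes, was near the floor at 29.1, under it, and 34.5, so its direction was not settled. Usp2, a deubiquitinase whose gene is itself an output of the clock, went from 135 to 9.30, under the floor, at least 5.05-fold lower.

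Among the partners of clock proteins, Tipin, which also works at DNA replication forks, went from 311 to 86.5, 3.60-fold lower, and its binding partner Timeless had 134 and 203, 1.52-fold higher. The deacetylase gene Sirt1 was 2.78-fold lower. Wdr5 was 2.29-fold lower with its brightest probe set, and the other was at -0.05 on the log2 scale. Nono was at 0.40. After centring, the 4 lower genes were Rora, Usp2, Tipin and Sirt1, and the 4 higher ones Nfil3, Fbxw11, Ciart and Timeless.

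**Figure D4:**
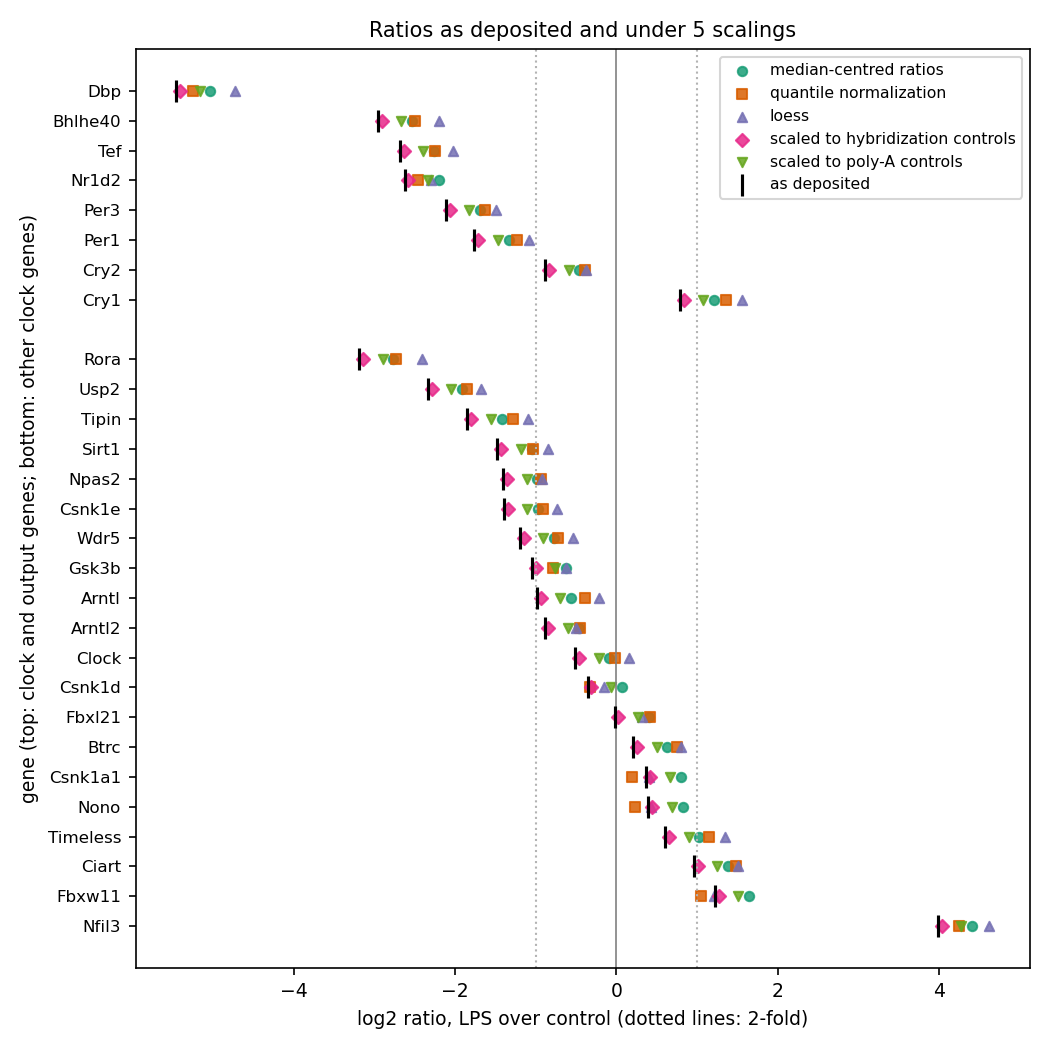
Log2 ratios (LPS over control) of the 8 measured clock and output genes (top) and the 20 measured other clock genes (bottom), as deposited (black bars) and under 5 scalings (coloured symbols), with dotted lines at 2-fold. Values of genes under a floor are bounds, except that of Fbxl21, whose ratio is set by the floors themselves. The 7 lower genes at the top stay below 0 and Cry1 above 0 in each scaling, while Clock, Csnk1d and Fbxl21 cross 0.

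Genes that the clock is known to control in many tissues were found on both sides. Of 10 listed, 9 are on the array and 8 were measured, 4 of them higher and 4 lower by at least 2-fold, beside 8.22% and 26.2% of all measured genes. They had a median log2 ratio of -0.15 that turned positive with poly-A scaling, loess, quantile normalization and median centring, and was 1.42 among the 7 genes that reached both floors. Tsc22d3, which encodes the glucocorticoid-induced leucine zipper GILZ, was 34.0-fold lower, from 2266 to 66.7, although its 4 probe sets ranged from -5.09 to -0.12. Klf9 was at least 14.0-fold lower (5 measured probe sets, from -3.81 to -0.82) and Klf10 8.98-fold lower. On the other side, Noct, the gene of the rhythmic protein nocturnin, went from 74.9 to 1010, 13.5-fold higher.

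Targets of REV-ERB repression were also listed, because Nr1d2 encodes one of these repressors. A link between Nr1d2 and the values of these genes was not tested. Of 10, 9 are on the array and 8 were measured. Of these, 3 were at least 2-fold higher and 2 lower, beside 8.22% and 26.2% of all measured genes. The median log2 ratio was 0.14 beside -0.42, and it turned negative, at -0.06, with the 35th-percentile floor (9 genes). After centring 4 were higher and 0 lower, beside 13.1% and 15.3%. That 0 rests on the brightest probe set of each gene and on Npas2, whose centred ratio of -0.98 is a bound. With the median of probe sets, 3 were lower and 3 higher as deposited. Besides Nfil3, those at least 2-fold higher were Ccl2, the monocyte chemokine gene (80.3 and 6858, 85.4-fold higher) and Il6 (0.815, under the floor, and 8178, at least 233-fold higher), which are also classic LPS response genes. Npas2 was among the lower ones as deposited, as was Cx3cr1, a chemokine receptor gene repressed by REV-ERB proteins in macrophages. Cx3cr1 was 2.53-fold lower with its brightest probe set, and its 2 probe sets had log2 ratios from -2.22 to -1.34. Mmp9, also repressed by REV-ERB proteins in macrophages, was under the floor on both arrays. Arntl, Clock, Npas2, Nfil3 and Cry1 stand both in this list and among the clock genes above.

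With 2 arrays, likeness between genes can only mean similar signals on each. The genes nearest to Dbp in log2 signal on the 2 arrays were Gpr34 (1236 and 29.2, distance 0.15), Arhgap19 (1423 and 18.9, distance 0.28) and Susd3 (907 and 21.1, distance 0.37). Like Dbp, Arhgap19 and Susd3 were under the LPS floor, so their distances measure the control signals alone. Those nearest to Cry1 were Rhoh (60.8 and 99.1, distance 0.06), Dcakd (55.7 and 106, distance 0.11) and Spindoc (64.2 and 96.7, distance 0.14).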

How the data were processed

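The authors deposited intensity values on a linear scale for every probe set of both arrays. They come from MAS5, per the submitters' processing notes, an Affymetrix method that sets perfect-match against mismatch probes. Its version, scaling and detection calls are not stated there, so a floor stood in for detection. Arrays were grouped by their titles. Only probe sets with 1 gene in the platform annotation were named, and RefSeq (assembly GRCm38.p6) changed 0 symbols.

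A gene was represented by its brightest probe set (mean log2 signal), and the log2 ratio is LPS minus control. With 1 array per condition nothing was tested, and 2-fold was the size at which genes were counted. The members and all gene lists were chosen with earlier results of these data known. Named are all members, the measured other clock genes, up to 4 genes with the largest ratios of each other list, a few further genes of these lists (Cx3cr1, Mmp9, Ddit4, Sgk1, Errfi1, Fkbp5, Zbtb16, Cdkn1c, Fos), chosen after their values were seen, and the 3 nearest genes of the members with the lowest and the highest ratio.

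Alternatives were a floor at the 35th or the 65th percentile, a pseudocount of 16 without floor, median centring, quantile normalization, loess (span 0.4), scaling to 18 hybridization and 24 poly-A control probe sets, the median of probe sets, plain probe sets alone, genes at or above both floors, and thresholds of 3-fold and 1.5-fold. The steps were tested on simulated arrays, with differences placed only in bright genes and the same noise at every signal. Differences in dim genes and floor bounds were therefore not checked. Work was done in Python 3.11.15 with pandas 2.3.3 and statsmodels 0.14.6. Protein sequences were not used here.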

Additional observations from a re-analysis of the deposited data

How the results depend on the processing

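Each of the 8 measured clock and output genes kept the sign of its log2 ratio under every alternative that gave it a value. This was little of a test. The 5 scalings raised all 8 ratios, which could not turn Cry1. Of the lower genes Cry2 lay nearest 0, between -0.88 and -0.38, and the others started at -1.76 or lower. Their median, -2.37 as deposited, was -2.07 with a 35th-percentile floor (10 genes), -1.79 with a 65th-percentile floor (7 genes), -1.95 with median centring, -1.94 with quantile normalization, -1.76 with loess, -2.08 with poly-A scaling, -1.80 with the median of probe sets and -1.76 with only genes at or above both floors. The number at least 2-fold lower fell from 6 to 3 with only genes at or above both floors, where 5 genes remain. With the 65th-percentile floor 4 were at least 2-fold lower, as the bounds of Per1 and Per3 shrank to -0.92 and -0.95 on the log2 scale. The number at least 2-fold higher was 1 in place of 0 with median centring, quantile normalization, loess, poly-A scaling and the 1.5-fold threshold. Shares of all measured genes were counted only as deposited and after median centring. Counts under any other setting, for these genes and for the other lists, therefore have no share to be set against. They show only how the counts move with the processing.

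For the other clock genes, the 8 lower and 2 higher became 4 and 4 with median centring, 4 and 4 with quantile normalization and 3 and 4 with loess. They were 5 lower with only genes at or above both floors, 3 lower and 1 higher at 3-fold, and 4 higher at 1.5-fold. Their median of -0.70 became -0.28 with median centring, -0.36 with quantile normalization, -0.18 with loess, -0.41 with poly-A scaling and -0.023 with plain probe sets alone. The causes were not tested, beyond the smaller number of genes where a floor or filter was changed. No paired analysis was possible because each condition has 1 array, and no array could be left out. Signals near the floor limit what can be said of Per2, Per3, Nr1d1 and both Cryptochrome genes.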

Other observations

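Per1 responds to glucocorticoids and to cAMP in many cells, and 2 lists of genes induced by these signals held it. Of 10 glucocorticoid-induced genes, all were measured, 5 at least 2-fold lower and 2 at least 2-fold higher, beside 26.2% and 8.22% of all measured genes, with a median log2 ratio of -1.01 beside -0.42. After median centring 4 were lower and 2 higher, beside 15.3% and 13.1%, with a median of -0.59. With quantile normalization or loess 3 were lower. With plain probe sets alone 4 were lower, and the median was -0.50. Beside Per1, Tsc22d3 and Klf9, the lower ones were Ddit4, an inhibitor of mTORC1 signalling (125 and 43.0, 2.92-fold lower) and the kinase gene Sgk1 (862 and 383, 2.25-fold lower, and -0.75 on the log2 scale after centring). The higher ones were the phosphatase gene Dusp1, at 217 and 7750, 35.7-fold higher, and Errfi1, a feedback inhibitor of EGF receptor signalling, at 102 and 238, 2.34-fold higher. The remaining 3 genes lay within 2-fold as deposited: Fkbp5 (223 and 210), Zbtb16 (44.9 and 40.9) and Cdkn1c (83.7 and 46.1, 1.81-fold lower). The measured probe sets of Zbtb16 ranged from -1.24 to -0.13 on the log2 scale. A part of glucocorticoid signalling in these values was not tested.

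Of 10 genes induced by cAMP and CREB, 9 were measured, 3 at least 2-fold higher and 1, Per1, at least 2-fold lower, beside 8.22% and 26.2% of all measured genes, with a median log2 ratio of 0.23, which was -0.14 with plain probe sets alone and -0.24 among the 7 genes that reached both floors. The higher ones were Dusp1, the phosphodiesterase gene Pde4b (95.5 and 1626, 17.0-fold higher) and the nuclear receptor gene Nr4a3 (2.61, under the floor, and 242, at least 6.91-fold higher). Fos had signals of 672 and 954, 1.42-fold higher. Per1 was thus the single gene of this list at least 2-fold lower, both as deposited and after centring.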
